A study of Mus musculus with 19 samples.

Results

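Colon tumours that lacked the corepressor genes Tgif1 and Tgif2 as well as 1 Apc allele were compared with colon tumours that lacked 1 Apc allele alone. The comparison used the 14 tumour libraries of a series of 19, with 7 libraries in each genotype, and all 18445 genes of the 32694 in the deposited table that reached 10 normalized counts in at least 5 libraries. A normalized count is the count of reads of a gene after the authors divided each library by a factor for its depth. The first group, called Apc tumours here, came from mice in which Villin-Cre had deleted 1 allele of Apc. The second group, called Apc/Tgif tumours, came from mice in which Villin-Cre had deleted 1 allele of Apc and both alleles of Tgif1 and of Tgif2. Villin-Cre is a recombinase driven by the Villin promoter and acts in the epithelium of the gut, so the stroma and immune cells of a tumour were not its target. Each genotype held 3 tumours from female mice and 4 from male mice, 1 tumour per mouse, and all mice were 12 weeks old. The series also holds 5 libraries of wild-type colon, from 3 female and 2 male mice. They are given as a reference level and are not part of the contrast. They did count in the filter on low values and in the fit, where they add to the estimate of spread. Poly-A RNA of whole tumours was sequenced, so for any gene below, fewer cells of a type and less RNA per cell cannot be told apart.

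Apc holds back Wnt signalling by taking part in the destruction of beta-catenin, and its loss in the intestinal epithelium starts adenomas. TGIF1 and TGIF2 are homeodomain proteins of the TALE class that bind the DNA sequence TGTCA and repress transcription. They are known as corepressors of Smad proteins, the effectors of TGF-beta signalling, and of retinoid receptors, and have been linked to Wnt signalling in intestinal tumours.

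The label checks came first. Xist, the RNA that coats the inactive X chromosome, lay at 19659 to 39232 normalized counts in the 6 female tumours and at 4.29 to 79.95 in the 8 male tumours, and Ddx3y, a gene of the Y chromosome, was high in the males only, at 1069 to 2748 against 4.09 to 20.7. Epcam, a defining marker of epithelium, lay at 58733 to 85689 in all 14 tumours. Library totals lay between 34417808 and 43474139 normalized counts. A pair of Apc/Tgif libraries stood apart. The male tumour replicate 5 held 9.35% of its total in Rn45s, the precursor of ribosomal RNA, where the other tumours held 0.171% to 0.7%, and the female tumour replicate 2 lay farthest out in the principal components described next. Hoxb13, a gene of the distal colon, was at 1088 to 9351 in Apc tumours, with a wide spread, and at 6540 to 8720 in Apc/Tgif tumours. The 7 tested genes of a distal colon Hox list had a median log2 fold change between genotypes of 0.99, and 0 were called. By sex the median was 1.61 in females and 0.4 in males. No label used here gives the position of a tumour along the colon, and its part in the results was not tested beyond 1 alternative with a distal colon score as a covariate. That alternative gave 1431 higher and 1631 lower genes and kept 93.9% of the calls reported below.

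The largest axis of variation among the tumours was genotype, and the next was a crossing of genotype and sex. On principal component 1, which held 25.9% of the variance, the 7 Apc tumours lay between -57.9 and -32.5 and the 7 Apc/Tgif tumours between 12.4 and 66.2. On component 2, with 19.3% of the variance, Apc tumours of females (15.5 to 51.2) lay on the side of Apc/Tgif tumours of males (21.3 to 41.7). Apc tumours of males (-47.6 to -20.1) lay on the side of Apc/Tgif tumours of females (-75.7 to -22). The 4 sets of mice thus fell into 4 corners.

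**Figure D1:**
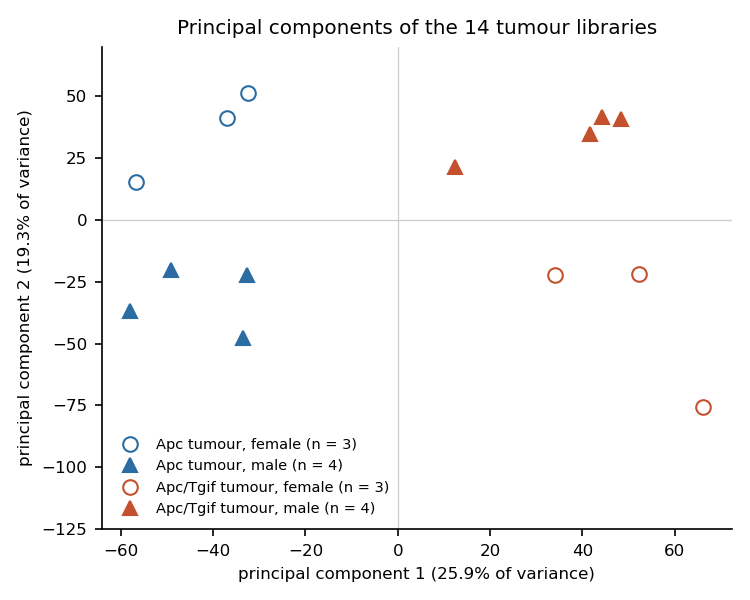
Principal components 1 and 2 of log2 normalized counts in the 14 tumour libraries, with open circles for females and filled triangles for males. The genotypes separate along component 1, and along component 2 the order of the sexes is opposite in the 2 genotypes.

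Between genotypes, 1453 genes were higher and 1615 lower in Apc/Tgif tumours by limma at an adjusted p under 0.05, out of 18445 tested. That is 16.6% of genes called, 7.88% higher and 8.76% lower. A change of more than 2-fold was found for 431 of the higher and 788 of the lower genes. In 424 genes (2.30%) every Apc/Tgif library lay above every Apc library, and in 327 (1.77%) every one lay below, 4.07% in all. The split between higher and lower depended on scaling: with library totals set equal in place of the deposited factors it was 1080 higher and 1849 lower. The median log2 fold change over all tested genes was -0.01, and list medians below are read beside it. Counts of called genes in each list are likewise read beside the 7.88% higher and 8.76% lower of all genes.

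The targeted genes were checked in every tumour. Levels are given below as the median in normalized counts, with the lowest and highest of the 7 libraries in brackets. Tgif1 lay at 3769 (2785 to 4964) in the Apc tumours and at 316 (251 to 654) in the Apc/Tgif tumours. All 7 Apc/Tgif libraries were below all 7 Apc libraries, with a log2 fold change of -3.47 ± 0.17 (SE) and an adjusted p of 2.54e-10 by limma. Tgif2 went the other way, from 680.5 (476 to 764) to 2696 (2141 to 3107), without overlap, with a log2 fold change of 2.05 ± 0.16 and an adjusted p of 1.14e-07. These values sum all transcripts of a gene and no label used here names the deleted exons, so the level of Tgif2 checks nothing about its deletion. Apc itself did not pass the test, at 6220.0 (4845 to 7674) and 7305 (4939 to 8504), with an adjusted p of 0.378.

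The genes that rose furthest, taken from called genes that averaged 100 or more normalized counts and whose groups did not overlap, were led by Krt15, a type I keratin. Krt15 lay at 114 (58.0 to 1311) in Apc tumours and at 23092 (8145 to 74978) in Apc/Tgif tumours, against 18.3 to 30.2 in wild-type colon. Every Apc/Tgif library exceeded every Apc library, and the log2 fold change was 6.73 ± 0.63 with an adjusted p of 1.75e-06 by limma. St6galnac1, a sialyltransferase that makes the sialyl-Tn antigen on mucins, rose from 13.3 (3.10 to 22.8) to 199 (121 to 971). The 3 female Apc/Tgif tumours held its 3 highest values, and the log2 fold change was 4.76 ± 0.60 with an adjusted p of 3.60e-05. Agr3, an endoplasmic reticulum protein of secretory epithelia, rose from 12.9 (5.68 to 49.5) to 259.6 (55.3 to 496). Its lowest Apc/Tgif value, in the male replicate 5 with the high ribosomal precursor, stood just above the highest Apc value.

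Dlgap1, a scaffold protein of synapses, had the smallest standard error of these 12 genes, at 101 (83.3 to 174) in Apc tumours and 805 (691 to 1042) in Apc/Tgif tumours. Its log2 fold change was 2.91 ± 0.17 with an adjusted p of 2.57e-09 by limma, and the effect was close in females (2.97) and males (2.87). Dlgap1 is the neighbour of the deleted Tgif1: in RefSeq GRCm38.p6 it lies at chr17:69969073-70821413 and Tgif1 at chr17:70844205-70853532. Whether the altered Tgif1 locus has a part in the level of Dlgap1 was not tested. Over the genes within 1 Mb of Tgif1, 3 of 12 were called (25%), and within 5 Mb 13.3% of 45, where 17.8% of all genes with a position were called. Within 1 and 5 Mb of Tgif2 the shares were 11.8% of 34 and 20.2% of 124.

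Of the other 8 genes of this top set, 5 are interferon-stimulated genes or interferon-induced relatives, Ifi27l2a, Mx2, Apol9a, Oas3 and Ifit3, and are described with their group. The remaining 3 were Csprs, Gdpd3 and Bpifb1. Csprs rose from 17.2 (0 to 25.4) to 294 (139.6 to 1059) normalized counts, with a log2 fold change of 4.98 ± 0.61. Gdpd3, a phospholipid-cleaving enzyme, rose from 52.7 (46.6 to 67.6) to 532 (352 to 1705), a log2 fold change of 3.35 ± 0.38. Bpifb1, a secreted protein of the bactericidal/permeability-increasing fold family, rose from 59.1 (6.72 to 98.9) to 277 (120.3 to 746), a log2 fold change of 2.87 ± 0.54. Csprs, Apol9a and Ifit3 have near-identical copies in the mouse genome between which reads may have been split, so their own levels are uncertain.

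**Figure D2:**
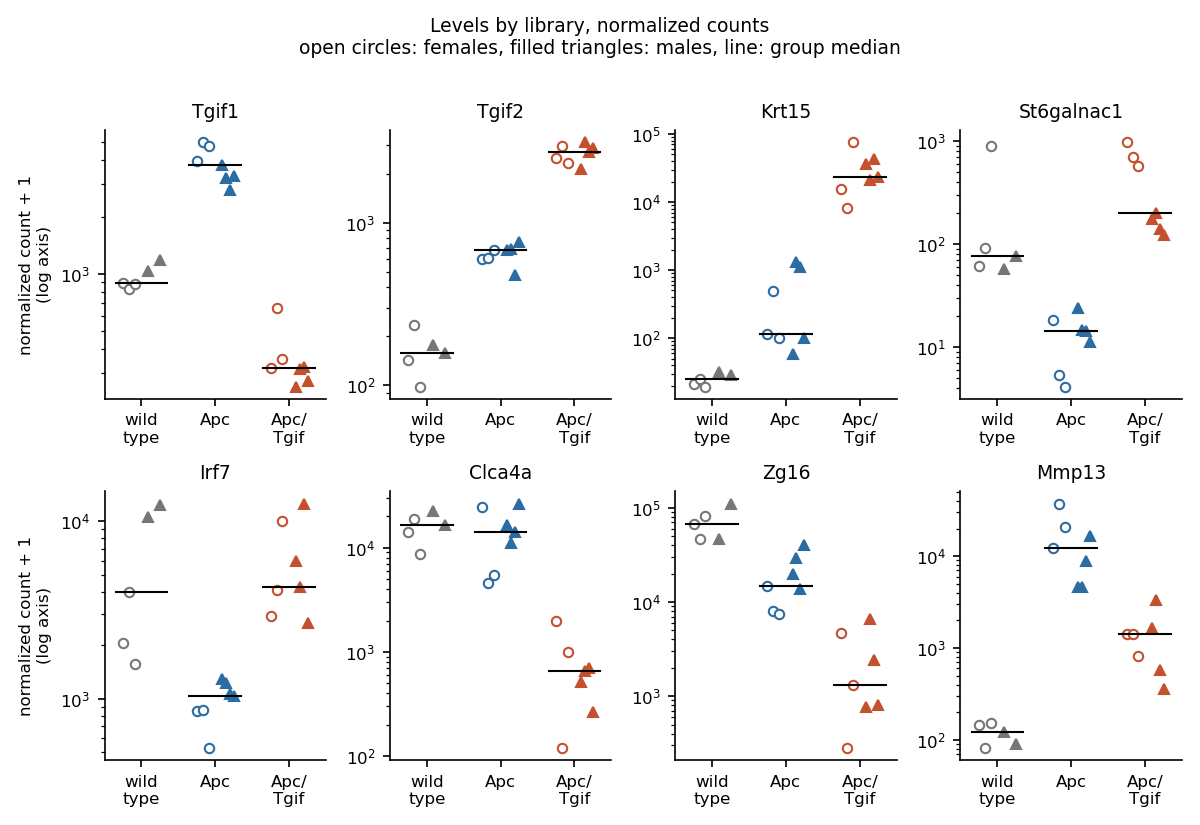
Normalized counts plus 1 on a log axis for 8 genes in each library of wild-type colon, Apc tumours and Apc/Tgif tumours, with open circles for females, filled triangles for males and a line at the group median. In every panel the 7 Apc/Tgif tumours lie wholly above or wholly below the 7 Apc tumours.

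The genes that fell furthest under the same rule were led by Rps6ka6. Rps6ka6, an X-linked ribosomal S6 kinase, fell from 327 (49.3 to 783) to 4.26 (0 to 10.4). The groups did not overlap, and the log2 fold change was -5.86 ± 0.64 with an adjusted p of 1.11e-05 by limma. Clca4a, a chloride channel regulator of surface colonocytes, lay at 14049.5 (4539 to 26440.4) in Apc tumours and 659 (119 to 1993) in Apc/Tgif tumours. Its level in wild-type colon, 8603 to 22359, overlapped that of the Apc tumours and not that of the Apc/Tgif tumours, and the log2 fold change between genotypes was -4.47 ± 0.51 with an adjusted p of 1.47e-05. Zg16, a lectin secreted by goblet cells, fell from 14829 (7399 to 39881) to 1303 (282 to 6619.7), a log2 fold change of -3.42 ± 0.54 with an adjusted p of 0.000274. Here the highest Apc/Tgif tumour came close to the lowest Apc tumour, which was female.

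Mmp13, a collagenase, was at 122 (81.1 to 150.5) in wild-type colon, 12328 (4581 to 37446) in Apc tumours and 1409 (361 to 3323) in Apc/Tgif tumours. Thus the tumours of both genotypes were above wild-type colon in every library, and the Apc/Tgif tumours were below the Apc tumours, with a log2 fold change of -3.42 ± 0.45 and an adjusted p of 5.46e-05 by limma. Dio2, the deiodinase that activates thyroid hormone, had the same order of medians, with 10.3 (3.42 to 32.2) in wild-type colon, 1089 (757 to 3179) in Apc tumours and 165 (24.6 to 261) in Apc/Tgif tumours. Its log2 fold change between genotypes was -3.74 ± 0.45. Dhrs9, an enzyme of retinol oxidation, lay at 124 (51.7 to 240.0) in wild-type colon and fell from 2254 (877 to 3245) in Apc tumours to 222 (37.6 to 432) in Apc/Tgif tumours.

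The other 6 were Hsd3b3, a hydroxysteroid dehydrogenase, Apob, the structural protein of chylomicrons, Nov, a matricellular protein of the CCN family, Ces2e, a carboxylesterase, Tgif1 and Zfp429, a zinc finger protein. Hsd3b3 fell from 256 (76.8 to 898) to 7.47 (0 to 68.5) normalized counts, and it too has near-identical relatives. Apob fell from 970.1 (399 to 5218) to 51.1 (2.69 to 293), with a log2 fold change of -4.39 ± 0.71. Nov fell from 2654 (874 to 4612) to 204 (72.6 to 676) and Ces2e from 2156 (503 to 3328) to 164 (82.3 to 502), where the lowest Apc and the highest Apc/Tgif library of Ces2e nearly touched. Zfp429 fell from 406 (239 to 555) to 14.8 (9.84 to 223), and its Apc/Tgif libraries formed 2 levels: 4 lay between 9.84 and 14.8 and 3 between 91.4 and 223.

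TALE homeobox genes, the class of Tgif1 and Tgif2, had calls in both directions. Of 15 tested, 3 were higher and 3 lower, and 2 and 2 of the 13 other than the targeted pair, where 7.88% and 8.76% of all genes were, and their median log2 fold change was -0.05. Without Apc/Tgif tumour replicate 2, 5 were lower. Meis2, a homeodomain cofactor, fell from 257 (196 to 455) to 78.1 (61.7 to 172), without overlap, a log2 fold change of -1.52 ± 0.23 with an adjusted p of 0.000184 in limma. The genes of TGF-beta, activin and BMP signalling did so as well, with 8 higher and 7 lower of 41 and a median of 0.02. With equal library totals the split was 4 higher and 8 lower. Only 4 or 5 were higher without Apc tumour replicate 1 or 7 or without Apc/Tgif tumour replicate 2, 6 or 7. Inhba, which encodes the activin A subunit, lay at 837 (747 to 1862) in Apc tumours and 343 (176 to 458) in Apc/Tgif tumours, against 39.9 to 73.2 in wild-type colon. The tumour groups did not overlap, and the log2 fold change was -1.66 ± 0.23 with an adjusted p of 7.98e-05.

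In retinoid metabolism and signalling, 1 of 21 genes was higher and 5 lower, with a median of -0.21, and 3 were lower without Apc/Tgif tumour replicate 4, 6 or 7. Besides Dhrs9, the retinoic acid receptor Rarg fell from 1006 (765 to 1508) to 677 (572 to 914), a log2 fold change of -0.61 ± 0.13 with an adjusted p of 0.00374 by limma. The retinal dehydrogenase Aldh1a2 fell from 41.9 (16.9 to 84.9) to 12.5 (3.20 to 35.8), a log2 fold change of -1.69 ± 0.40 with an adjusted p of 0.00695. For both genes the groups overlapped. The effect on Rarg was larger in males (-0.88) than in females (-0.24), with an adjusted p of 0.0455 for the sex difference. For this list the median was -0.01 in females and -0.63 in males.

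A few Wnt target and feedback genes were higher in Apc/Tgif tumours. Of 27 tested, 6 were higher and 2 lower, with a median of 0.18, and 3 were higher in the 14 tumours alone, without Apc tumour replicate 6 or without Apc/Tgif tumour replicate 6. Without Apc tumour replicate 6, 5 were lower. Rnf43, a ubiquitin ligase that removes Wnt receptors, lay at 8289 (6173 to 9242) in Apc tumours and 13700.1 (10079 to 18015) in Apc/Tgif tumours. Every Apc/Tgif library exceeded every Apc library, with a log2 fold change of 0.78 ± 0.14 and an adjusted p of 0.000899 by limma. Ephb2, the Eph receptor of the crypt base, rose from 4352 (4011 to 5413) to 6993 (6819 to 8057), likewise without overlap, by 0.65 ± 0.09 with an adjusted p of 0.000129. Ascl2, the transcription factor of crypt base stem cells, rose by 0.93 ± 0.22 with overlapping groups, at 586 to 1444 and 1037 to 2513.

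Among stem cell and crypt base genes, 21 were tested. Of these, 7 were higher and 0 lower by limma, where 7.88% and 8.76% of all genes were, and their median was 0.12. Without the pair of libraries that stood apart, 5 were higher and 1 lower. In females 2 were higher and 3 lower, shares near the 13.7% and 14.1% of all genes. In males 8 were higher and 1 lower, where 8.77% and 9.80% of all genes were. Hopx, a homeodomain-only protein and marker of reserve crypt cells, lay at 2853 (2293 to 3612) in Apc and 5759 (4818 to 6779.9) in Apc/Tgif tumours. The groups did not overlap, and the log2 fold change was 0.95 ± 0.12 with an adjusted p of 2.82e-05. Slc12a2, the sodium-potassium-chloride cotransporter of crypt cells, rose by 0.84 ± 0.16 (adjusted p 0.00122), with groups that overlapped only slightly. Lgr5, the receptor that marks crypt base stem cells, lay at 1489 to 6094 in Apc and 2772 to 8209 in Apc/Tgif tumours.

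Notch pathway genes gave 6 higher and 3 lower of 23, with a median of 0.31, where 7.88% and 8.76% of all genes were. In females 7 were higher and 0 lower (median 0.43), where 13.7% and 14.1% of all genes were. In males 3 were higher and 4 lower (median 0.17), where 8.77% and 9.80% of all genes were. Rfng, a glycosyltransferase that tunes Notch receptors, rose from 768 (542 to 982) to 1226 (944 to 1497), a log2 fold change of 0.69 ± 0.13 with an adjusted p of 0.000984 by limma. The Notch target Hes1 rose from 2779 (2274 to 3397) to 3638 (2976 to 5374), a log2 fold change of 0.51 ± 0.11 with an adjusted p of 0.00372. Summed over the list, the Apc/Tgif libraries held 32253 to 40504 normalized counts and the Apc libraries 23584 to 32453, so the groups met at their edges.

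Of 23 genes of the foetal-like regenerative state and Yap targets, 1 was higher and 9 lower, with a median of -0.53, and 8 of 23 had a positive log2 fold change. Among them Anxa1, a phospholipid-binding protein of regenerating epithelium, fell from 23861 (20024 to 29376) to 14397 (11817 to 18669), without overlap, a log2 fold change of -0.69 ± 0.12 with an adjusted p of 0.000757 by limma. The epidermal growth factor ligands Areg and Ereg, which count in this list and among the 14 EGF family genes (1 higher, 3 lower), fell as well. Areg lay at 1010.1 (725 to 2506) in Apc and 389 (251 to 782) in Apc/Tgif tumours (-1.64 ± 0.31, adjusted p 0.00137). Ereg lay at 2077 (711 to 4710.2) and 659 (254 to 724), a log2 fold change of -1.92 ± 0.39 with an adjusted p of 0.00207. In both genes 6 of 7 Apc libraries lay above all Apc/Tgif libraries. Of 17 keratins, 3 were higher and 4 lower, and 2 were lower without Apc tumour replicate 3. Opposite to Krt15, the surface keratin Krt20 fell from 20367 (4289 to 30823) to 1592 (816 to 4515), a log2 fold change of -2.96 ± 0.43, and Krt6a, a keratin of injured epithelia, from 179 (63.3 to 686) to 36.6 (2.69 to 81.2), a log2 fold change of -3.28 ± 0.76.

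Of the markers of differentiated epithelial cells, those of goblet cells, colonocytes and enteroendocrine cells had many lower members, and those of tuft and Paneth cells few. Of 30 goblet cell genes, 20 were lower and 0 higher by limma, with a median of -1.18, against 8.76% of all genes lower. Of 36 colonocyte genes, 17 were lower and 0 higher, with a median of -0.84, and of 26 enteroendocrine genes 10 were lower and 0 higher, with a median of -0.88. By sex, 7 goblet, 7 colonocyte and 2 enteroendocrine genes were lower in females (medians -0.96, -0.72 and -0.40), where 14.1% of all genes were, and 18, 19 and 12 were lower in males (medians -1.19, -1.16 and -1.38), where 9.80% of all genes were. A sex difference was called in 2, 7 and 3 of them, in each list a smaller share than the 23.6% of all genes. Of 19 tuft cell genes, 1 was higher and 3 lower (5 lower without Apc/Tgif tumour replicate 2), with a median of -0.41. Of 20 Paneth cell genes, 0 were higher and 1 lower (4 lower without Apc/Tgif tumour replicate 5), with a median of -0.02. Of 20 pan-epithelial genes, 1 was higher and 0 lower, with a median of 0.00. With any 1 tumour library left out, 16 to 22 goblet, 17 to 18 colonocyte and 9 to 11 enteroendocrine genes were lower, and without Apc tumour replicate 6 the pan-epithelial genes gave 4 higher.

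Among goblet cell genes, Fcgbp, a mucus protein that binds to the mucin network, lay at 27502 (9432 to 43470.4) in Apc and 5189.5 (952 to 10125) in Apc/Tgif tumours, against 135333 to 295336 in wild-type colon. The ranges overlapped slightly, and the log2 fold change was -2.38 ± 0.40 with an adjusted p of 0.000548 by limma. Capn9, a protease of gastrointestinal mucous cells, fell from 475 (293 to 1052) to 69.0 (45.7 to 187), without overlap (-2.41 ± 0.35, adjusted p 0.00014). Summed over the 30 genes, Apc tumours held 160048 to 416363 normalized counts and Apc/Tgif tumours 103646 to 184255. Among colonocyte genes, Cyp2c55, a cytochrome P450 of the large intestine, had the largest fold, at 1428 (125 to 8288) in Apc and 36.3 (9.45 to 161) in Apc/Tgif tumours (-5.14 ± 0.74, adjusted p 0.000129). Its fall was larger in males (-7.01) than in females (-2.64), with an adjusted p of 0.0126 for the sex difference.

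Hormone-producing cells were represented by low counts. Gcg, the proglucagon gene, lay at 35.8 to 235 in Apc and 5.34 to 53.2 in Apc/Tgif tumours, against 861 to 1345 in wild-type colon, with a log2 fold change of -2.24 ± 0.44 and an adjusted p of 0.00177 by limma. Cck, which encodes cholecystokinin, lay at 10.2 to 46.6 and 0 to 17.1, and 2 Apc/Tgif libraries were at 0. Nkx2-2, a transcription factor of endocrine fate, was below 4 normalized counts in all 7 Apc/Tgif tumours and at 5.72 to 25.7 in Apc tumours (-2.08 ± 0.33, adjusted p 0.000258). At these levels the fold depends on a few reads per library.

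The enzymes that build and cap mucin O-glycans were split, with 2 of 33 higher and 9 lower and a median of -0.35, and 5 were lower without Apc tumour replicate 1 or 7. St6galnac1, described above, was 1 of the higher genes. Chst4, a sulfotransferase, fell from 1157 (605 to 1259) to 268 (111 to 636), a log2 fold change of -1.89 ± 0.30 with an adjusted p of 0.000287 by limma. B3galt5, a galactosyltransferase, fell from 12484 (7197 to 16770.5) to 6025 (1575 to 8358), a log2 fold change of -1.22 ± 0.26 with an adjusted p of 0.00314. The groups overlapped slightly in both.

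Enzymes of drug and toxin metabolism were the other large epithelial group, with 4 higher and 20 lower of 46 and a median of -0.96. Sult1c2 and Sult1d1, cytosolic sulfotransferases, fell from 244 (99.8 to 544) to 24.2 (12.5 to 76.1) and from 941 (329 to 1921) to 188 (110.0 to 299). Neither gene's groups overlapped, with log2 fold changes of -3.07 ± 0.39 (adjusted p 4.36e-05 by limma) and -2.28 ± 0.30 (adjusted p 6.19e-05). The median of this list was -0.07 in females and -1.52 in males, and in 19 of its 46 genes the sex difference passed the test, 17 with the effect lower in males. Over all genes tested, 23.6% had a called sex difference and 11.9% an effect lower in males.

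Genes of glycolysis and the hypoxia response were lower, with 0 higher and 16 lower of 29, where 8.76% of all genes were lower. Their median was -0.54, and no member had a positive log2 fold change. In females 1 was higher and 6 lower, where 13.7% and 14.1% of all genes were. In males 0 were higher and 21 lower, where 8.77% and 9.80% of all genes were. Hif1a, the oxygen-regulated subunit of hypoxia-inducible factor, lay at 13418 (10419 to 18023) in Apc and 7235 (5569.9 to 9163) in Apc/Tgif tumours. The groups did not overlap, and the log2 fold change was -1.01 ± 0.13 with an adjusted p of 5.97e-05 by limma. Eno1, the glycolytic enolase, was tight in both groups at 13748 (13266 to 17945) and 9052 (8446 to 10296), a log2 fold change of -0.65 ± 0.08 with an adjusted p of 4.93e-05. Car9, the carbonic anhydrase induced by low oxygen, fell from 2465 (1052 to 5034) to 687 (408 to 859.6), also without overlap (-1.82 ± 0.27, adjusted p 0.00015). Sex differences passed the test in 13 of the 29, 12 of them with the effect lower in males, against the same 23.6% and 11.9% of all genes, and the medians were -0.18 in females and -0.74 in males.

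Interferon-stimulated genes formed the group with the highest median. Of 37 tested, 30 were higher and 0 lower by limma, where 7.88% of all genes were higher. Their median log2 fold change was 2.10, 36 of 37 were positive, and in 11 every Apc/Tgif library lay above every Apc library, against 2.30% of all genes. With 1 tumour library left out, 26 to 30 were called higher. Summed over the list, the Apc/Tgif tumours held 42588 to 163312 normalized counts (median 61635) and the Apc tumours 21187 to 48642 (median 25678).

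Irf7, the transcription factor that amplifies type I interferon responses, lay at 1036 (528 to 1287) in Apc tumours and 4232 (2674 to 12549) in Apc/Tgif tumours. The groups did not overlap, and the log2 fold change was 2.45 ± 0.38 with an adjusted p of 0.000217 by limma. In wild-type colon Irf7 ranged from 1574 to 12301, which covers most of the range of the Apc/Tgif tumours and lies above all Apc tumours. The highest Apc/Tgif values came from 1 male and 1 female, replicates 6 and 3. The same 2 tumours also held the highest values of Ifit3 and Oas3.

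Ifit3, an antiviral RNA-binding protein, lay at 181 (95.2 to 418) in Apc and 1146 (587 to 3463) in Apc/Tgif tumours (2.81 ± 0.57, adjusted p 0.00231 by limma). Oas3, a synthetase of 2-5A that activates RNase L, lay at 164 (75.5 to 241) and 924 (467 to 3624), a log2 fold change of 2.83 ± 0.60 with an adjusted p of 0.0033. Dhx58, a sensor of viral RNA, lay at 264 (174 to 304) and 922 (616 to 2584), a log2 fold change of 2.15 ± 0.33 with an adjusted p of 0.000213. None of the 3 overlapped between groups, nor did Ifi27l2a (21.8 to 176 against 272 to 4163), Mx2 (8.52 to 69.2 against 140.2 to 523) or Apol9a (20.6 to 159 against 235 to 1841).

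The promoters of Ifit3 and Oas3 are shown because the letters searched, GAAA, any 2 bases and GAAA again, on either strand, are the core of the interferon-stimulated response element. In the 250 bases before the start of a gene in RefSeq GRCm38.p6, 3.23% of the 12378 tested genes with a promoter in the table held a match, and of 26 interferon-stimulated genes with a promoter 15 (57.7%) did. Capitals mark the matches, 2 in Ifit3 (chr19:34583279-34583528, plus strand) and 1 in Oas3 (chr5:120777660-120777909, minus strand), each read 5′ to 3′ on the strand of the gene. Irf7 had 0 matches in this window.
Ifit3: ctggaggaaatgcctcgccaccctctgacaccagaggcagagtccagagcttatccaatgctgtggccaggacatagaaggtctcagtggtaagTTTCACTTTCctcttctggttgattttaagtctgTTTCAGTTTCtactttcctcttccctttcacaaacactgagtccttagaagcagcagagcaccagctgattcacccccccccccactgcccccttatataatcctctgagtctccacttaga
Oas3: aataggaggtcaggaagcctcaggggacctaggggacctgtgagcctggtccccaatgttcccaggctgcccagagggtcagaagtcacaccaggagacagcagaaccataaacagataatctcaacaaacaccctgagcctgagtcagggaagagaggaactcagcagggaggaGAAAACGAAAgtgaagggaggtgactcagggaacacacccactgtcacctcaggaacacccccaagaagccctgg
The match nearest to the start of the gene ended 113 bases before it in Ifit3 and 66 bases before it in Oas3.

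The same search for TGTCA, the letters that TGIF proteins bind, on either strand, gave a match in 36.9% of tested genes with a promoter, in 430 of 1000 called higher (43%) and in 436 of 1193 called lower (36.5%). Among genes called in the same direction in both sexes the shares were 44.1% of 306 higher and 27.1% of 299 lower. A match of 5 letters is frequent by its length alone, and these shares are a description of the letters only.

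Genes of MHC class I and II presentation were higher in 5 of 24, with 0 lower and a median of 0.74, and 3 were higher without replicate 4 or 6 of either genotype. H2-Aa, an MHC class II chain, rose from 1591 (1019 to 2478) to 2871 (1906 to 5003), a log2 fold change of 1.03 ± 0.25 with an adjusted p of 0.00794 by limma. H2-K1, a class I chain, rose from 15448 (10476 to 24765) to 26884 (16223 to 50327), a log2 fold change of 0.81 ± 0.22 with an adjusted p of 0.0167. Both overlapped between groups. For H2-Aa the effect was 1.69 in males and 0.15 in females, a difference with an adjusted p of 0.00506.

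Markers of immune cells moved in several directions. Of 13 mast cell genes, 6 were higher and 2 lower, with a median of 1.33, and 1 of the 6 was a tryptase. This gene, Tpsb2, rose from 80.7 (24.6 to 249) to 575 (164 to 1352), a log2 fold change of 2.48 ± 0.51 with an adjusted p of 0.00264 by limma. The IgE receptor chain Ms4a2 rose from 14.5 (6.87 to 42.7) to 105 (14.1 to 259), a log2 fold change of 2.44 ± 0.56. Kit, the mast cell growth factor receptor, and Il1rl1, the receptor of interleukin-33, were the 2 that fell. Over both sexes the summed level of the list overlapped, at 4858 to 18941 in Apc and 4834 to 13852 in Apc/Tgif tumours. In females the sum was 12356 to 18941 in Apc and 4834 to 7406 in Apc/Tgif tumours, without overlap. In males it was 4858 to 10045 and 6938 to 13852. A sum is weighted to the members with the highest counts, and in females it moved against the median of the members. The median log2 fold change of the 13 genes was 0.72 in females and 2.73 in males. Of the 13 genes, 0 were higher and 1 lower in females. In males 9 were higher and 1 lower, where 8.77% and 9.80% of all genes were. Of 23 macrophage and dendritic cell genes, 5 were higher and 1 lower. The complement gene C1qa rose from 1520.0 (1350.1 to 1568) to 2126 (1909.8 to 2854) and the arginase Arg1 fell from 2660.2 (2359 to 3875) to 815 (438 to 2091), each without overlap, with log2 fold changes of 0.60 ± 0.12 (adjusted p 0.00255) and -1.83 ± 0.29 (adjusted p 0.000305). Of 16 neutrophil genes 3 were lower, and 10 were without Apc/Tgif tumour replicate 2, 8 without replicate 5 and 13 without both. Ly6g, the surface marker of mouse neutrophils, fell from 2707 (1043 to 4951) to 658 (244 to 1362), a log2 fold change of -1.96 ± 0.39 with an adjusted p of 0.00198. In wild-type colon Ly6g lay at 4037 to 9116, whereas the neutrophil genes Cxcr2 and Mmp8 lay at 81.9 to 118 and 0 to 1.74. In Apc tumours Cxcr2 lay at 338 to 546 and Mmp8 at 111.5 to 617. Ly6g thus did not follow these genes from wild-type colon to Apc tumours. Of 22 T cell and NK cell genes 1, Gata3, was lower over both sexes. In females 1 was higher and 4 lower (median -0.61), where 13.7% and 14.1% of all genes were. In males 7 were higher and 1 lower (median 0.76), where 8.77% and 9.80% of all genes were. A sex difference was called in 7 of these 22 genes. It was called in 11 of the 23 macrophage and dendritic cell genes, 8 with the effect higher in males. Over all genes tested the share was 23.6%.

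In the stroma and matrix, part of the protease and fibroblast genes was lower, where 8.76% of all genes were. Of 28 matrix protease genes, 2 were higher and 13 lower, with a median of -0.58. Plau, the urokinase plasminogen activator, fell from 3839.9 (2114 to 4602) to 1325 (946 to 1930.4), without overlap (-1.23 ± 0.20, adjusted p 0.000288 by limma). Mmp10, a stromelysin, fell from 11357 (5525 to 34671) to 1738 (1601 to 5765), a log2 fold change of -2.38 ± 0.39 with an adjusted p of 0.0004, with the male replicate 5 as its highest Apc/Tgif value and the only one in the Apc range. Of 24 fibroblast and collagen genes, 11 were lower and 0 higher, with a median of -0.56, and 6 were lower without Apc/Tgif tumour replicate 7. Col12a1, a fibril-associated collagen, fell from 8643 (4181 to 10100.4) to 3946 (2395 to 4676), a log2 fold change of -1.05 ± 0.17 with an adjusted p of 0.000313.

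Of 22 enteric neuron and glia genes, 7 were lower and 0 higher, with a median of -0.89. Ret, the receptor of glial-derived neurotrophic factor, fell from 974 (501 to 1546) to 178 (133 to 492) without overlap (-2.15 ± 0.31, adjusted p 0.000125 by limma), and Snap25, a synaptic vesicle fusion protein, from 23.2 (17.1 to 42.6) to 5.21 (2.14 to 12.5). The summed level of this list was 1220 to 2439 in Apc and 625 to 1340 in Apc/Tgif tumours. In wild-type colon the sum was 5992 to 10306 and Snap25 lay at 313 to 569, both above all Apc tumours. Ret differed from them, at 290 to 591 in wild-type colon, below its median in Apc tumours. Of 20 smooth muscle genes 2 were lower, and the summed level was 49292 to 66732 in Apc and 43528 to 53185 in Apc/Tgif tumours. The part of the amount of stroma in the lower levels of matrix, neuron and protease genes was not tested.

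**Figure D3:**
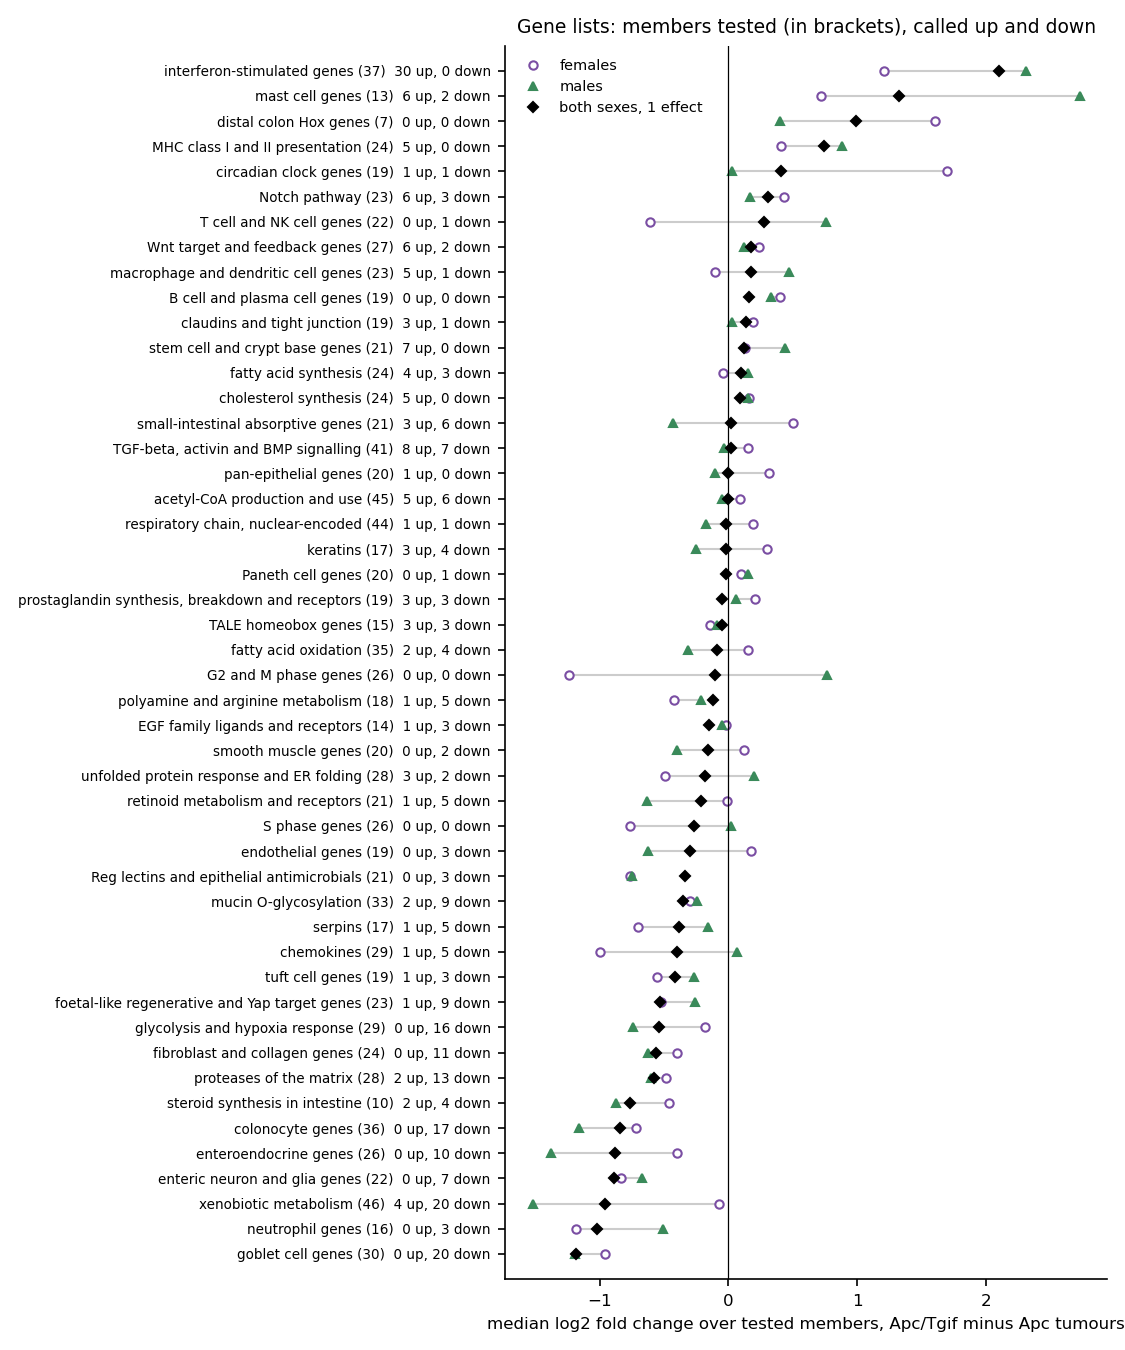
Median log2 fold change (Apc/Tgif minus Apc tumours) over the tested members of each gene list, as 1 effect for both sexes (diamonds), in females (circles) and in males (triangles), with the members called up and down. Interferon-stimulated genes lie at the top at 2.10 and goblet cell genes at the bottom at -1.18, and G2 and M phase genes have their sexes on opposite sides of 0.

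The genotype effect differed between the sexes in 4352 genes, 23.6% of those tested, by limma on the male effect minus the female effect at an adjusted p under 0.05. The effect was higher in males in 2148 genes (11.6%) and lower in 2204 (11.9%), and in 3669 of the 4352 (84.3%) the log2 fold changes had opposite signs in the sexes. Taken alone, females gave 2521 higher (13.7%) and 2594 lower (14.1%) genes, 27.7% called, and males 1618 (8.77%) and 1807 (9.80%), 18.6% called. Called in both sexes and in the same direction were 442 higher (2.40%) and 394 lower (2.14%) genes. These 836 make up 16.3% of the female calls and 24.4% of the male calls. Another 435 genes (2.36%) were called in both with opposite directions. Across the 18445 genes the female and male log2 fold changes had a Pearson correlation of 0.177 and a Spearman correlation of 0.0465, which is a description across genes that are not independent.

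**Figure D4:**
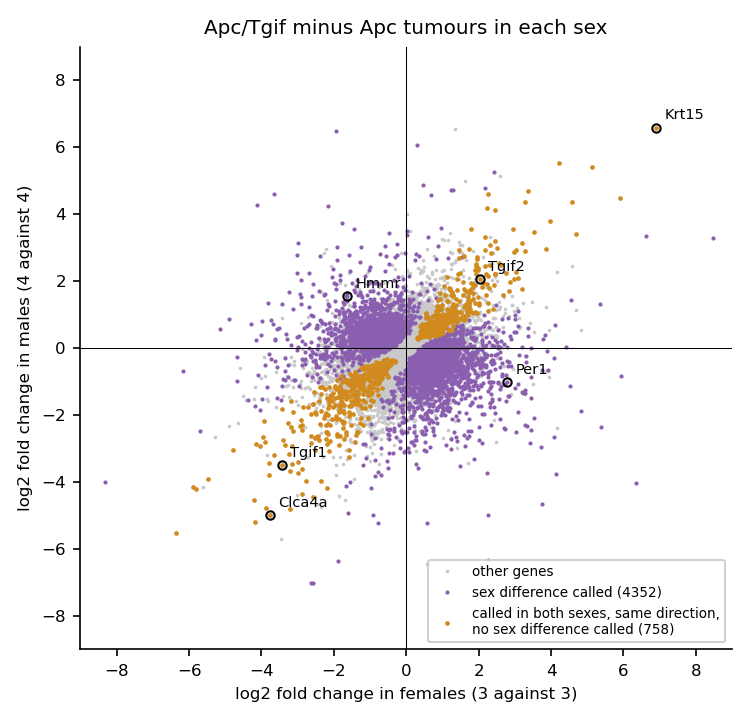
Log2 fold change (Apc/Tgif minus Apc) of each tested gene in females on the x axis and in males on the y axis, with genes called for a sex difference in purple and genes called in both sexes in the same direction, without a sex difference, in orange. The 758 orange genes, Krt15, Tgif1, Tgif2 and Clca4a among them, lie along the diagonal, and the 4352 purple genes mostly in the quadrants of opposite sign.

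Calls over both sexes come from a fit of 1 effect for both, which favours genes that move alike in them. Of the 3068, 3024 (98.6%) had the same sign in both sexes, and 553 (18%) had a called sex difference. The effects on Krt15 (6.91 in females and 6.59 in males), Gdpd3 (3.86 and 2.97), Clca4a (-3.77 and -5.00), Zg16 (-3.00 and -3.74) and Hopx (1.15 and 0.80) were among those without a called sex difference. Among the genes of the largest change, Rps6ka6 fell further in females (-8.32) than in males (-4.01), with an adjusted p of 0.00231, and St6galnac1 rose further in females (6.64 against 3.35, adjusted p 0.0213).

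Cell division genes had the largest share of called sex differences among the gene lists. Of 26 genes of the G2 and M phases, 0 were called for genotype over both sexes by limma (0 higher and 0 lower at an unadjusted p under 0.05), whereas 20 were lower in females (median -1.24) and 3 higher in males (median 0.77), and in 24 of 26 the sex difference passed the test, where 11.6% of all genes had an effect higher in males. With array quality weights 5 were lower in females, 17 higher in males and 22 had a sex difference. Bub1, a kinase of the spindle checkpoint, was at 1591, 1896 and 1911 normalized counts in Apc females and 156, 588 and 736 in Apc/Tgif females, and at 745, 831, 834 and 840.0 in Apc males and 1144, 1184, 1562 and 1585 in Apc/Tgif males. Within each genotype the sexes did not overlap, and their order was opposite: in Apc tumours the females were high, in Apc/Tgif tumours the males. The log2 fold change was -2.13 ± 0.40 in females (adjusted p 0.00129) and 0.74 ± 0.35 in males (adjusted p 0.154), and the sex difference had an adjusted p of 0.00194. Hmmr, a mitotic spindle protein, and Nusap1, a microtubule protein of the spindle, had the same order, with sex differences of 3.19 ± 0.63 and 2.42 ± 0.47 (adjusted p 0.00271 and 0.00231).

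The female Apc/Tgif replicate 2 was the lowest tumour for these genes, with 156 for Bub1 and 266 for Hmmr, and the list summed to 13911 there where the other tumours held 43069 to 100394. Without that library, 9 of the 26 were lower in females, with a median of -0.61, 21 were higher in males (7 without Apc/Tgif tumour replicate 3, and 1 without replicate 6 or 7) and 22 had a called sex difference. Without Apc tumour replicate 2 or 3, both female, 8 and 12 were lower in females and 20 had a called sex difference. Over all single libraries left out, that last count was 20 to 25. Of 26 S phase genes, 13 were lower in females and 7 had a sex difference, and without that library 2 and 4. With array quality weights 0 S phase genes were lower in females and 3 had a sex difference. The S phase sex difference was called in 3 genes without Apc tumour replicate 2 or 3 and in 12 without Apc/Tgif tumour replicate 3, all female. Without Apc tumour replicate 1, 2 or 3, the S phase genes lower in females were 8, 1 and 3.

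Circadian clock genes moved with the same 4 sets of mice in the opposite sense. Of 19 tested, 9 were higher in females (median 1.70), where 13.7% of all genes were, and in males 1 was higher and 2 lower (median 0.03). A sex difference passed the test in 10, all with the effect lower in males, against 11.9% of all genes. Per1, a core repressor of the clock, was at 408, 455 and 499 in Apc females and 2034, 2169 and 6889 in Apc/Tgif females, and at 1181, 1531, 1560.4 and 1719 in Apc males and 542, 599.8, 763 and 1143 in Apc/Tgif males. The 3 Apc females were the lowest of all 14 tumours and the 3 Apc/Tgif females the highest, with a log2 fold change of 2.78 ± 0.46 in females (adjusted p 0.000475), -1.02 ± 0.40 in males (adjusted p 0.0804) and an adjusted p of 0.000792 for the difference. Nr1d1, the repressor REV-ERB alpha, rose in females by 2.38 ± 0.44 and had a log2 fold change of 0.34 ± 0.38 in males (adjusted p 0.567). Without the female Apc/Tgif replicate 2, the female median of the list was 1.12 and 7 of the 19 had a called sex difference. With array quality weights 5 were higher in females and 7 had a sex difference.

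The promoter of Per1 is shown for its E-box, the letters CACGTG that the clock activators bind, in capitals, at the first of 2 start sites (chr11:69098699-69098948, plus strand, RefSeq GRCm38.p6).
Per1: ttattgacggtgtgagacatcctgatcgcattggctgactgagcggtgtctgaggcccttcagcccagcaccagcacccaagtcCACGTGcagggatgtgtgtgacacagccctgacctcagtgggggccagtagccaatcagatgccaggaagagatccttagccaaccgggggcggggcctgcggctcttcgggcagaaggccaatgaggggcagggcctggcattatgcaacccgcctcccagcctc
These 6 letters, which read alike on both strands, stood in the 250 bases before the start of 5 of 16 clock genes with a promoter (31.2%) and of 9.18% of all tested genes. They were in the promoters of 9% of 1533 genes whose effect was higher in males and 9.84% of 1535 whose effect was lower.

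Of 28 genes of the unfolded protein response and protein folding in the endoplasmic reticulum, 13 were lower in females, where 14.1% of all genes were, and 1 in males. There were 3 higher in females and 2 in males. A sex difference was called in 10, against 23.6% of all genes, 9 of them with the effect higher in males, against 11.6%. Canx, the chaperone calnexin, was at 22730.2, 26038 and 26184 in Apc females and 11203, 12703 and 13639.9 in Apc/Tgif females, and at 12333, 14375, 15476 and 15665 in Apc males and 18853, 18942, 18957 and 19390.2 in Apc/Tgif males. The sexes did not overlap in either genotype and their order was reversed between the genotypes, with an adjusted p of 0.00027 for the difference. Besides Canx, the genes with the smallest p of the sex difference and an average of 100 or more included Khk, the fructose kinase, Fam98c and Iars2, the mitochondrial isoleucyl-tRNA synthetase. Khk was at 114, 119 and 122 in Apc females and 410.2, 519 and 626 in Apc/Tgif females, and at 216, 262, 273 and 332 and 151, 161, 203 and 228 in the males, with effects of 2.10 ± 0.20 and -0.54 ± 0.18 and an adjusted p of 0.000173. The effects on Fam98c were 2.07 in females and -0.29 in males, and those on Iars2 0.47 and -0.80.

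**Figure D5:**
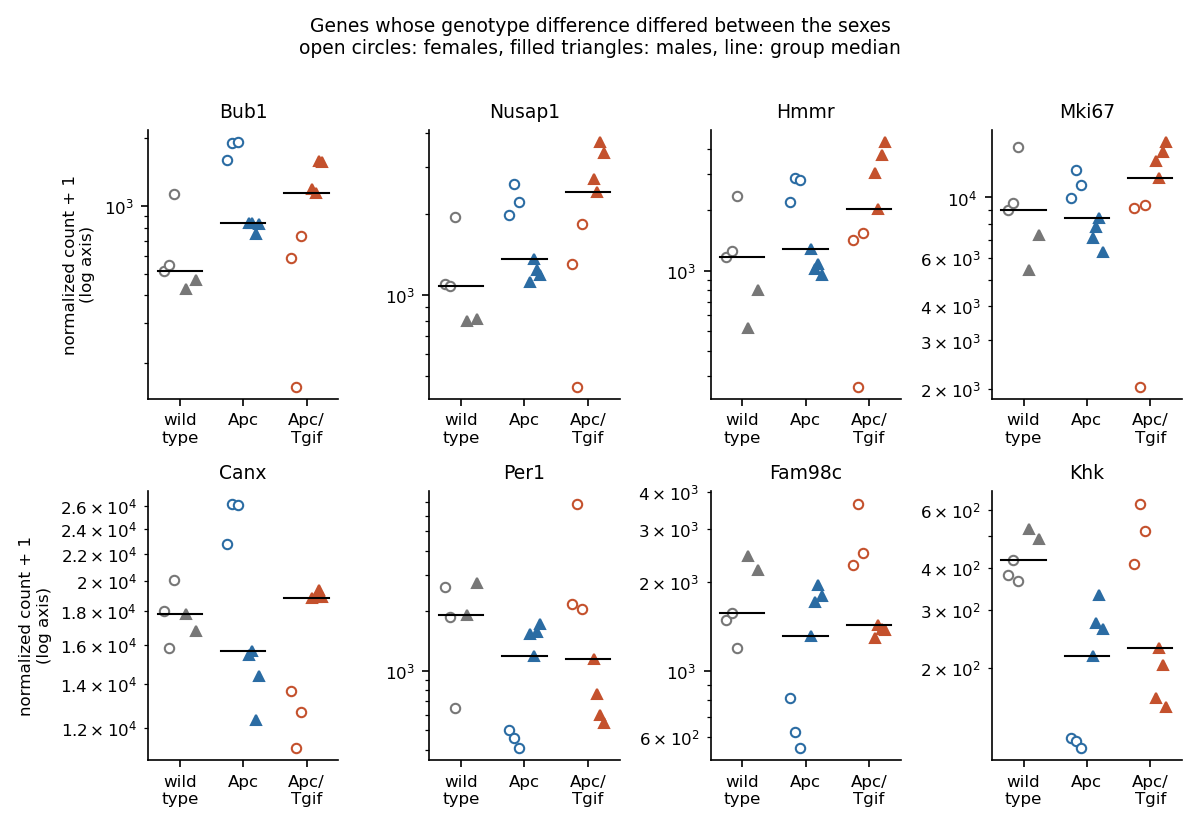
Normalized counts plus 1 on a log axis for 8 genes in each library, with open circles for females, filled triangles for males and a line at the group median. In the 5 genes Bub1, Nusap1, Hmmr, Mki67 (a proliferation marker) and Canx, Apc females lie above Apc males and Apc/Tgif females below Apc/Tgif males, and in Per1, Fam98c and Khk the order is the opposite in each genotype.

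More interferon-stimulated genes were called in males than in females. In males 31 of 37 were higher (median 2.31), where 8.77% of all genes were, and in females 9 (median 1.21), where 13.7% of all genes were. A sex difference was called in 8 of the 37, a share near the 23.6% of all genes. All 8 had the effect higher in males, against 11.6% of all genes. The female count and the sex difference count moved with single libraries. The sex difference was called in 0 members without Apc tumour replicate 2 and in 14 without Apc/Tgif tumour replicate 3, both female, in 3 without Apc/Tgif tumour replicate 1 or 6, in 4 without replicate 2, and in 5 without replicate 4 or Apc tumour replicate 6. In females 3 members were higher without Apc tumour replicate 3 or Apc/Tgif tumour replicate 3, and 5 without Apc tumour replicate 1. Their female median was 0.56 without Apc/Tgif tumour replicate 3. With array quality weights 2 were higher in females and 3 had a sex difference. Ifi27l2a, an interferon-induced mitochondrial protein, was at 73.9, 147 and 176 in Apc females and 272, 379 and 1799 in Apc/Tgif females, and at 21.8, 46.5, 70.5 and 80.6 in Apc males and 669.6, 1132, 1160.0 and 4163 in Apc/Tgif males. The Apc/Tgif tumours of both sexes were above the Apc tumours, by 2.19 ± 0.68 in females and 4.79 ± 0.59 in males, and the difference had an adjusted p of 0.0464.

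Each of the 4 sets of tumours came from mice of 1 genotype and 1 sex. No label used here gives a litter, a batch or a time of collection, so a difference of that kind between the sets cannot be told apart from the sex difference of the genotype effect. The count of 4352 genes was 2731 without Apc tumour replicate 2, a female, and 4349 without the pair of Apc/Tgif libraries that stood apart.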

How the data were processed

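Poly-A RNA of 7 Apc tumours, 7 Apc/Tgif tumours and 5 wild-type colons was read from 1 end over 75 bases, per the labels' protocols. Each column of the deposited table is the normalized count signal of 1 library: the authors scaled the counts of a gene by the size factor of that library, as inferred from the values. The submitters' processing notes list Salmon, DESeq2 and the builds GRCm38 and mm10. Not given in the sources used here are versions, annotation and the use of strand in counting. A gene and its antisense partner therefore cannot be told apart. Whole reads were not recovered from the values, so no count test was run and the precision that raw depth gives is unknown.

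Values were taken as log2(normalized count + 1), which understates the fold of low genes, for genes with at least 10 normalized counts in at least 5 libraries. limma 3.58.1 in R 4.3.3 (trend and robust) was fitted to all 19 libraries with terms for group and sex. For the sex difference, each group and sex had its own mean. Tests were two-sided with Benjamini-Hochberg adjustment over all genes tested at 0.05. The code was tested on simulated data. Groups came from the labels, and each library is 1 mouse. Replicates were numbered in the order of deposit.

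The members and gene lists were chosen with earlier results of these data known. Genes were named by rule: Apc, Tgif1 and Tgif2, the 12 genes that rose and the 12 that fell furthest out of those called, averaging 100 or more over the tumours and without overlap, up to 3 called members with the smallest p of each list described, the 4 smallest p of the sex difference at that average, Xist and Ddx3y, and members of cell type marker lists. Predicted genes, clones and variable segments (3258 of those tested) were not named, and results on some genes are not reported here. Mki67, Lgr5, Il1rl1, Kit, Rn45s, Hoxb13 and the genes named for a sex difference within a list were chosen after their values were seen. Alternatives changed the pseudocount, filter, scaling, model terms, weights and libraries. The effect averaged over sexes and the fit without the pair of libraries that stood apart were chosen after seeing the data. Promoters came from RefSeq GRCm38.p6.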

Additional observations from a re-analysis of the deposited data

Results flagged for a closer look

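In 13 of 176 groups of 7 libraries tested, the extreme library was far from the others. Its gap to the nearest, divided by the range of the group, exceeded the critical value of 0.568 in Dixon's test, which chance exceeds in about 1 in 20 groups. Gap and range were taken on log2(normalized count + 1), whereas the levels printed beside the ratios are normalized counts. The female Apc/Tgif replicate 2 was the extreme library for 6 genes. It was highest for Tgif1 (654 normalized counts, ratio 0.644), Gdpd3 (1705, ratio 0.602) and Nr1d1 (6497, ratio 0.572). It was lowest for Ereg (254, ratio 0.607), Bub1 (156, ratio 0.572) and Hmmr (266, ratio 0.6). The male Apc/Tgif replicate 5 was lowest for Apc (4939, ratio 0.653) and Agr3 (55.3, ratio 0.591) and highest for Mmp10 (5765, ratio 0.629) and Rn45s (4063477, ratio 0.821, with 61156 to 129489 in the other 6). Among Apc tumours, the male replicate 5 was lowest for Csprs (0, ratio 0.636) and Col12a1 (4181, ratio 0.617), and the male replicate 7 was highest for Eno1 (17945, ratio 0.585).

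The genotype effect differed between the sexes in 4352 genes by limma. For the genes named, the difference is given as the log2 fold change in males minus that in females. It was positive for Rps6ka6 (4.31), Hmmr (3.19), Bub1 (2.87), Ifi27l2a (2.60), Nusap1 (2.42), Mmp10 (1.90), H2-Aa (1.54), Canx (1.40), Pdk3 (0.90) and Hif1a (0.65). It was negative for Cyp2c55 (-4.37), Per1 (-3.81), St6galnac1 (-3.29), Khk (-2.64), Sult1c2 (-2.48), Krt20 (-2.47), Fam98c (-2.36), Nr1d1 (-2.03), Ret (-1.69), Chst4 (-1.60), Hpgd (-1.46), Iars2 (-1.27), Acss2 (-0.97) and Rarg (-0.64).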

How the results depend on the processing

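The 3068 calls between genotypes (1453 higher, 1615 lower) shared 98.6% to 99% of their genes with the calls under other pseudocounts, 78.1% with those from the 14 tumours alone, 54.8% with female libraries alone and 52.3% with male libraries alone. Female libraries alone gave 2230 higher genes. Without any 1 tumour library, 1191 to 1644 genes were higher, 1334 to 1809 lower, and 2731 to 4909 had a sex difference, lowest without Apc tumour replicate 2. No named gene reversed a call under any alternative run. Calls within lists were not compared for a reversal. Of 2402 values of named genes under the alternatives, 35 lost a call and 14 gained one, 39 of these with 1 sex alone. Another 4 took the opposite sign and passed the test with 1 sex alone, from no call as reported: Iars2 in females, and Bub1, Canx and Per1 in males. Of 1344 list medians, 41 moved by more than the spread between replicates, 36 of them with 1 sex alone. Nr1d1 was no longer called in the 14 tumours alone or without Apc tumour replicate 1, 2 or 3, at 1.08 to 1.22 on the log2 scale. No paired analysis was possible because the replicate numbers give only the order of deposit. Single libraries decide many list counts of under 10 genes, the position of tumours in the colon is unlabelled, and genes of a few normalized counts have folds that rest on few reads.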

Other observations

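Of 45 genes of acetyl-CoA production and use, 5 were higher and 6 lower in Apc/Tgif tumours by limma, with a median log2 fold change of 0.00, and these shares lie near the 7.88% and 8.76% of all genes tested. Acat1, the mitochondrial acetyl-CoA acetyltransferase, lay at 3548 (2912 to 4273) in Apc and 5397 (4777 to 6621) in Apc/Tgif tumours, without overlap, and wild-type colon at 6791 to 7849. Its log2 fold change was 0.67 ± 0.09 with an adjusted p of 7.48e-05. Acss2, which makes acetyl-CoA from acetate, rose from 1305 (732 to 2777) to 2507 (2218 to 3108) (1.02 ± 0.20, adjusted p 0.00172). Pdk3, a kinase that inhibits pyruvate dehydrogenase, fell from 867 (795 to 1068) to 631 (380.0 to 767) without overlap (-0.67 ± 0.14, adjusted p 0.00248). Of 24 cholesterol synthesis genes, 5 were higher and 0 lower, but 1 to 3 were higher without Apc tumour replicate 2, 3, 4 or 6 or Apc/Tgif tumour replicate 1, 3, 4 or 5.

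Of 19 genes of prostaglandin synthesis, breakdown and reception, 3 were higher and 3 lower, where 7.88% and 8.76% of all genes were. Without Apc/Tgif tumour replicate 5, 5 were higher. A sex difference was called in 9 of the 19, against 23.6% of all genes, 3 with the effect higher in males and 6 lower. Ptger4, a receptor of prostaglandin E2, rose from 1242 (1164 to 1308) to 2019 (1631 to 2437). The groups did not overlap, and the log2 fold change was 0.71 ± 0.10 with an adjusted p of 0.000125 by limma. Hpgd, which breaks prostaglandins down, rose from 1168 (679 to 2515) to 3825 (2113 to 4699) (1.42 ± 0.26, adjusted p 0.00087), while Ptges, a synthase of prostaglandin E2, fell from 1238 (948 to 1546) to 686 (486 to 1079.7) (-0.86 ± 0.15, adjusted p 0.000778). Hpgd had a called sex difference, with an effect in males minus that in females of -1.46. Of 10 genes of steroid synthesis in the intestine, 2 were higher and 4 lower. Cyp11a1, which cuts the side chain of cholesterol, rose from 13.2 (8.66 to 26.4) to 46.8 (31.3 to 64.5) without overlap (1.54 ± 0.28, adjusted p 0.000824). Hsd3b2, a hydroxysteroid dehydrogenase with near-identical relatives, was at 2.57 to 84.9 in Apc tumours and 0 to 2.70 in Apc/Tgif tumours.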
